A study of Mus musculus with 6106 samples.

Results

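Interferon-response regulatory T cells (Tregs) were picked out of splenic Tregs by the transcripts they held. A cell counted as a gate cell if it had at least 500 unique molecular identifiers (UMIs, the tags that count single transcripts) in all, of which at least 2 belonged to the 9 interferon-inducible genes Ifit1, Ifit3, Ifit3b, Isg15, Rtp4, Iigp1, Irf7, Zbp1 and Usp18. This gate held 763 of the 5435 cells with at least 500 UMIs, out of 6106 deposited cells. The cells came from male B6 mice aged 10 months that carried both the Nr4a1-Gfp and the Foxp3-Ires-Thy1.1 allele. The first makes green fluorescent protein (GFP) report on Nr4a1, a gene induced by T cell receptor signalling, and the second makes Thy1.1 report on Foxp3, the lineage factor of Tregs. The members were selected on these counts, so the 9 genes are given below as a description only. Spleen cells that were DAPI- TCRb+ CD4+ Foxp3-Thy1.1+ had been sorted into 3 windows of GFP brightness. GFPlow was the dimmest, from 0 to 20%, GFPmed the middle, from 40 to 60%, and GFPhigh the brightest, from 80 to 100%. Each bin was 1 inDrops library, a droplet method for single cells, and had 0 replicates. The number of mice behind a library was not given in the sources used here, and no wild-type or interferon-treated group was analysed here. Gate cells, 304 of them in GFPlow, were set against the other cells of the same bin, 4672 in all. With 1 library per bin, and with cells of a library not being replicates, there was no test. Brackets hold 95% intervals, which cover counting error alone.

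Interferons are secreted proteins that tell cells of an infection. Type I interferons bind the receptor of Ifnar1 and Ifnar2, and interferon gamma binds that of Ifngr1 and Ifngr2. The receptors activate Jak kinases, which phosphorylate transcription factors of the STAT family. After type I interferon, these bind interferon-stimulated response elements together with Irf9. Their targets include enzymes that detect or degrade viral RNA, GTPases that attack the vacuoles of intracellular microbes, and the machinery that loads peptides onto MHC class I.

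Some of the gate genes, and some genes that were higher with them, hold the core of such a response element next to their transcription start, and 6 of these promoters are shown because the results turn on genes of this kind. Promoters of 250 bases before the RefSeq start (build GRCm38.p6, from RefSeq) were searched on both strands for GAAA, any 2 bases and GAAA, which reads TTTC, any 2 bases and TTTC on the other strand. Matches could overlap. The motif was found in 3.04% of all 27025 promoters of the table, in 4 of the 5 gate genes with a promoter there (Ifit1, Ifit3, Ifit3b and Isg15, not Irf7), in 5 of the 9 genes with a promoter there among the 16 called higher below, and in 2.83% of the 6652 promoters of genes with at least 50 UMIs outside the gate. Of the 20 highest genes named further below, 14 had a promoter there and 4 of these held the motif. The interferon genes Cmpk2 and Ddx58 did not hold it. Below, each sequence is written 5′ to 3′ on the strand of its gene, with the motif in capitals. Isg15 is at chr4:156200819-156200906 on the minus strand, where 3 matches overlap, and Ifit1 at chr19:34640775-34640864 on the plus strand, with 2 separate matches. Rsad2 is at chr12:26456493-26456582 on the minus strand, Oas3 at chr5:120777660-120777744 on the minus strand, Tgtp2 at chr11:49064213-49064292 on the minus strand and Gm12250 at chr11:58183742-58183831 on the plus strand. The RefSeq start used for Gm12250 lies upstream of its start in GENCODE M21, which is at 58187739.
Isg15: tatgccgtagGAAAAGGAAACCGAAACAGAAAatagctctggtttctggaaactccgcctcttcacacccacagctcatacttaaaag
Ifit1: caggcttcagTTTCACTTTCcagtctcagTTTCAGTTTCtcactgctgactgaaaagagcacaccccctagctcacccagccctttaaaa
Rsad2: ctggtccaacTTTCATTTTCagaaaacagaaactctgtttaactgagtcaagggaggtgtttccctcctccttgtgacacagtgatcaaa
Oas3: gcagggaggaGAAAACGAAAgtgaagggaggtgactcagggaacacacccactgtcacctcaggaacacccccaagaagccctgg
Tgtp2: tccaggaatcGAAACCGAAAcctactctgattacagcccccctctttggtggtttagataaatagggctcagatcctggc
Gm12250: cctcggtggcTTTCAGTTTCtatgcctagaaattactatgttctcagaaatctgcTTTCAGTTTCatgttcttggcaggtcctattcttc

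The libraries were alike in mapping but not in depth, and gate cells were deeper than the rest. Of the reads, 66.3% to 67.5% mapped in gate cells and 66.6% to 67.3% in other cells. The median total was 1249 UMIs in gate cells against 1066 in other cells of GFPlow, 1808 against 1472 in GFPmed and 1465 against 1101 in GFPhigh. A deeper cell reaches 2 gate UMIs more easily. Between any 2 bins, 20 to 29 cell barcodes were shared among the cells used, and 0 to 3 among gate cells.

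How common gate cells were depended on depth. As deposited, the share was 14.3% [12.9, 15.9] for GFPlow, 18.5% [16.6, 20.6] for GFPmed and 9.80% [8.46, 11.3] for GFPhigh (exact Clopper-Pearson intervals), so GFPmed came first. After every cell was thinned to 500 UMIs, it was 5.09% [4.19, 6.11] for GFPlow, 3.97% [3.05, 5.07] for GFPmed and 3.10% [2.34, 4.01] for GFPhigh, which put GFPlow first. The thinned intervals of neighbouring bins overlapped. GFPhigh was lowest both ways, and among cells with at least 1500 and under 2000 UMIs the share was 22.7% for GFPlow, 22.4% for GFPmed and 15.0% for GFPhigh. No cell type that lacks interferon-inducible genes was at hand to give a background. Of 18 cells with at least 5 UMIs of erythroid genes, at a median of 1845.5 UMIs, 3 were in the gate before thinning and 0 after, which allows a share of up to 18.5% (exact interval). The part of free RNA in droplets was not tested.

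**Figure D1:**
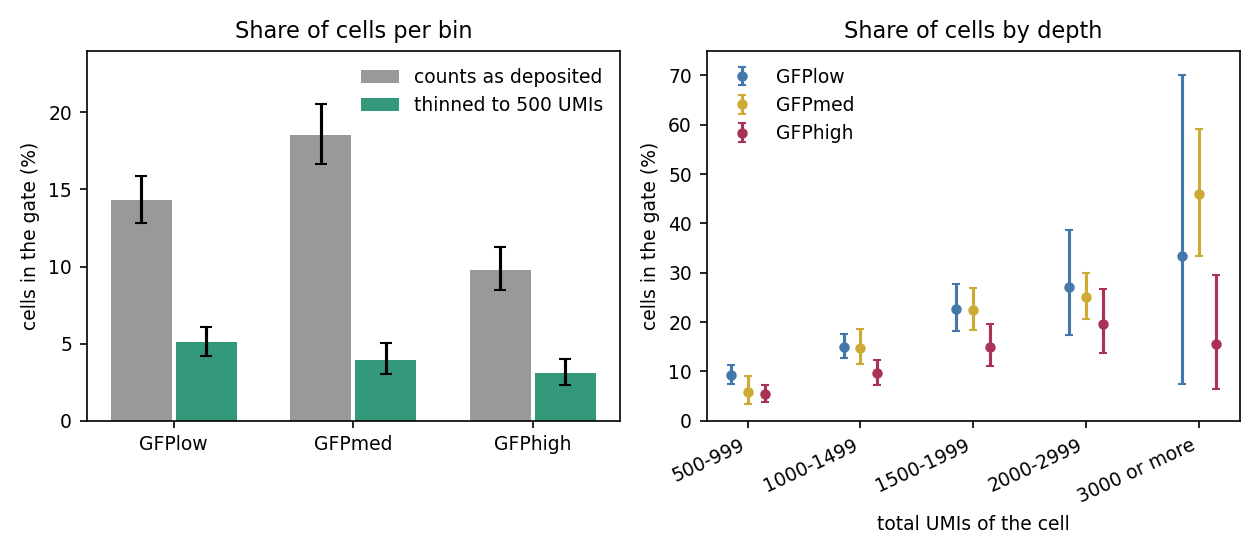
Left, share of cells in the gate in percent for each GFP bin, as deposited and after thinning every cell to 500 UMIs; right, the deposited share by total UMIs of the cell. Bars and points are 1 library each with exact 95% intervals for counting error; GFPmed is highest as deposited at 18.5%, GFPlow after thinning at 5.09%, and GFPhigh is lowest both ways.

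The values that chose the cells were small, and 1 gene dominated them. Over the 5435 cells the summed gate count was 0 in 3495 and 1 in 1177, the cells just outside the gate. It was 2 in 416, just inside, and 3 or more in the rest, with at most 19. Iigp1, which encodes an immunity-related GTPase that acts on pathogen vacuoles, gave 33.9% of the gate UMIs of members, Zbp1, a sensor of Z-form nucleic acids, 17.5%, Rtp4 11.4% and Ifit1, which binds foreign RNA caps, 10.1%. The other 5 were Usp18, which removes ISG15 and damps the receptor, at 8.19%, Isg15, the ubiquitin-like modifier itself, at 7.88%, the transcription factor gene Irf7 at 4.79%, Ifit3 at 3.79% and Ifit3b at 2.48%. Ifit3 and Ifit3b are close copies and their split is uncertain.

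Iigp1 was lower from bin to bin, and the make-up of the gate went with it. In gate cells Iigp1 stood at 909 UPM (the counts of a gene scaled to a total of 1000000 over the summed cells) for GFPlow, 504 for GFPmed and 468 for GFPhigh. In other cells it stood at 82.6, 57.5 and 45.6. Its share of the gate UMIs was 40.8%, 31.7% and 25.6% in that order. Members without any Iigp1 UMI made up 38.5%, 50.5% and 61.5%. Ifit1 did not follow that order, with 181.4, 152.5 and 261.4 UPM in gate cells. Gate and other cells were split by counts of these genes, and depth differed between bins, so these levels cannot rank the bins. Over all cells used, Iigp1 stood at 219.2, 157.6 and 96.9 UPM for GFPlow, GFPmed and GFPhigh. Ifit1 stood at 37.8, 40.6 and 40.5 UPM over the same cells.

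Members held few gate genes each. Of the 763, 266 had UMIs of 1 gate gene and 497 of at least 2. Over all cells used, how often a second gate gene was held differed between pairs. Of the cells with Ifit1, 12.4% also held Ifit3, against 1.01% of cells without Ifit1, and 12.9% held Usp18, against 3.35%. Of the 766 cells with Iigp1, 4.05% held Ifit1, against 3.32% of cells without Iigp1, 2.61% held Ifit3, against 1.20%, and 2.61% held Irf7, against 2.63%. The other gate genes were held more often with Iigp1 than without. The shares were 5.87% against 3.32% for Usp18, 6.66% against 4.45% for Rtp4 and 2.35% against 1.14% for Ifit3b. They were 6.79% against 4.99% for Isg15 and 14.6% against 11.5% for Zbp1. These shares move with depth, which the genes of a cell have in common, and describe these libraries only.

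By T cell markers and Foxp3, gate cells were much like the other cells of their bin. Other Treg signature genes, given further below, split in direction. Foxp3 stood at 385, 342 and 407 UPM in gate cells of GFPlow, GFPmed and GFPhigh, and at 390.5, 309.98 and 352 in other cells. The log2 ratio, combined over the 3 bins as a Mantel-Haenszel ratio, was 0.10 [-0.05, 0.25]. It was -0.01 [-0.15, 0.12] for the coreceptor gene Cd4, -0.09 [-0.28, 0.10] for the CD3 chain gene Cd3e and 0.02 [-0.07, 0.12] for the kinase gene Lck. The summed T cell markers were at 2993 to 3351 UPM in gate cells and 3040 to 3308 in other cells. The receptor constant genes were not analysed here.

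Interferon genes made up most of the genes called higher in gate cells among well counted genes, but few of all genes called. A gene was called higher when its combined ratio was at least 2-fold and it was higher in each of the 3 bins, and lower by the same rule. Of 7046 genes with at least 100 UMIs outside the gate, 16 were called higher (0.227%) and 45 lower (0.639%). Of the 16, 11 belonged to the lists of interferon genes described next. Those outside the lists were Lyz1, Rgs16, Med19, Taf4b and the gene model Gm4841. The lists need not hold every interferon-inducible gene, so a gene outside them may still be one. Over 7 lists of interferon genes and their targets, counting members with at least 50 UMIs, 85 (62.04%) were higher in each bin at any size, 0 lower in each bin and 13 called higher. Among all 8624 genes with at least 50 UMIs, 36 were called higher, 14% were higher in each bin and 12.4% lower, and the median combined log2 ratio was -0.02.

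**Figure D2:**
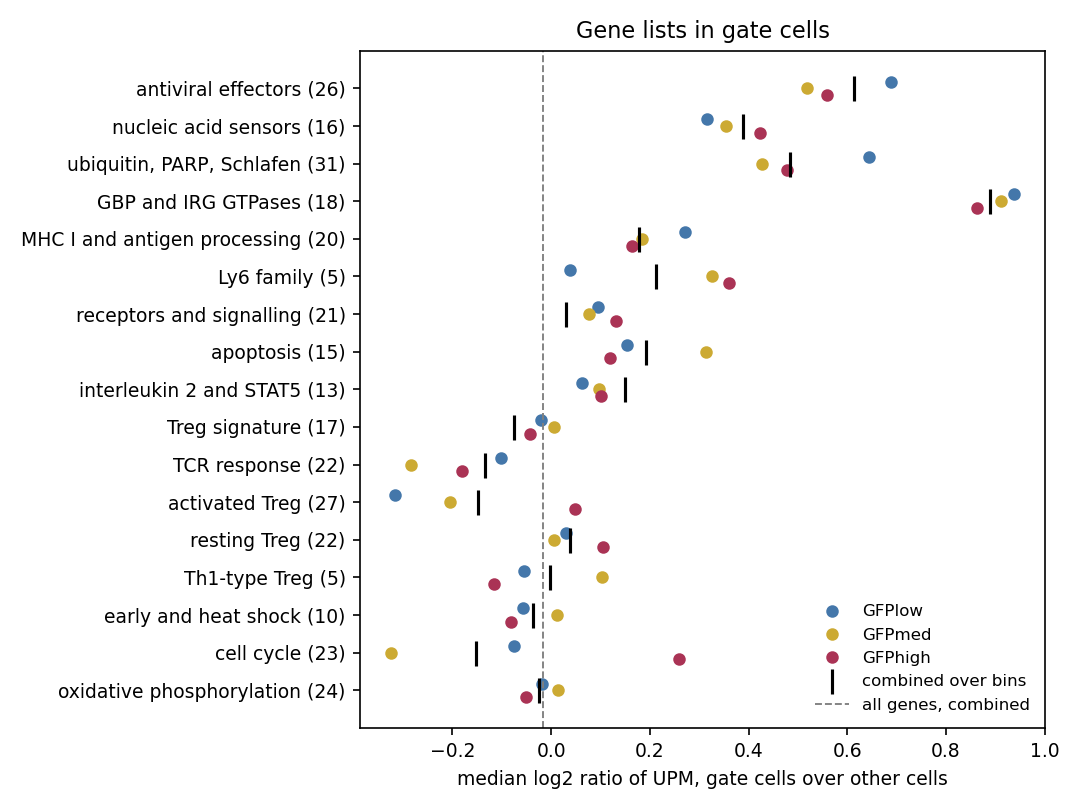
Median log2 ratio of UPM, gate cells over other cells of the bin, for 17 gene lists, whose count of measured genes stands in parentheses; dots are the 3 bins (1 library each), bars the combined ratio and the dashed line all genes. The GBP and IRG GTPases are at 0.89 and the antiviral effectors at 0.61, and the TCR response list is at -0.13.

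Antiviral effectors, which act on viral RNA, entry or budding, held the interferon gene with the highest ratio. Of 26 measured members, 20 were higher and 0 lower in each bin, against 14% and 12.4% of all genes with at least 50 UMIs. By the call of at least 2-fold, 6 were higher, against 0.417% of genes with at least 50 UMIs, and 0 were lower, against 1.36%. The list median was 0.61 combined, and 0.69, 0.52 and 0.56 in GFPlow, GFPmed and GFPhigh. It was 0.48 without GFPlow, and 0.34 over the 13 members with at least 300 UMIs, none of which was called.

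Rsad2 (chromosome 12, 26442746 to 26456452, minus strand, mm10 with GENCODE M21), which encodes the radical enzyme viperin that blocks viral RNA synthesis, had the highest ratio of the named interferon genes. It stood at 42.2 UPM in gate cells of GFPlow, 83.4 in GFPmed and 36.3 in GFPhigh, and at 11.3, 6.16 and 5.01 in other cells. Gate cells were above other cells in all 3 bins, by a combined log2 ratio of 2.95 [2.32, 3.46]. It rested on few cells, with 74 UMIs in 20 gate cells, of which the top cell held 35.1%. The ratio was 2.20 without GFPmed, 3.53 without GFPlow and 2.10 without cells that held at least 2 UMIs of defining genes of other lineages. Cmpk2, its neighbour on the chromosome and a nucleotide kinase gene, was at 44.7, 30.2 and 14.5 UPM in gate cells and 21.1, 13.9 and 8.02 in other cells, a combined log2 ratio of 1.07 [0.48, 1.63]. Its counts were 4 UMIs in the gate cells of GFPhigh.

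The 2′-5′ oligoadenylate synthetases make the second messenger that switches on RNase L. Oas3 stood at 39.8, 24.8 and 36.3 UPM in gate cells and at 13.3, 15.4 and 14.0 in other cells, a combined log2 ratio of 1.18 [0.61, 1.76]. Oas1b was at 44.7, 21.3 and 39.9 UPM in gate cells and at 14.3, 15.9 and 15.0 in other cells, with 1.14 [0.59, 1.72]. Both were closest to the other cells in GFPmed, and without GFPlow their log2 ratios were 0.96 and 0.84. Oasl2 reached 1.41 [0.57, 2.30] on 20 gate UMIs in 17 cells. Members of the Oas1 family are close copies and reads could be split among them. Ifitm3, which blocks virus fusion, had 1.47 [0.72, 2.21], but the top cell held 60.7% of its gate UMIs, and the ratio turned to -0.11 with a gate of 3 UMIs.

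GTPases of the guanylate-binding (GBP) and immunity-related (IRG) families had the highest median of the interferon lists in the main gate. They are induced most by interferon gamma, load onto pathogen vacuoles and break them. Of 18 measured members, Iigp1 not among them, 15 were higher and 0 lower in each bin, against 14% and 12.4% of all genes. Of these, 7 were called higher, against 0.417% of genes with at least 50 UMIs. The 7 were Gbp4, Gbp6, Gbp10, Tgtp1, Tgtp2, Gm4951 and Gm12250. The list median was 0.89 combined, and 0.94, 0.91 and 0.86 in GFPlow, GFPmed and GFPhigh. In the gate without Iigp1 it was 0.58, below the 0.71 of the antiviral effectors, and 0 of 18 were called. Thus 0 of the 7 calls held there. Members that needed Iigp1 to pass were then among the other cells. With UMIs of 2 different gate genes 6 were called higher, and with a gate of 3 UMIs 10. The shares of genes with at least 100 UMIs called higher were 0.369% without Iigp1, 0.412% with 2 different genes and 0.752% with 3 UMIs.

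Gbp6 (chromosome 5, 105270702 to 105293698, minus strand) stood at 432, 289.1 and 290.4 UPM in gate cells of GFPlow, GFPmed and GFPhigh and between 113.8 and 172.6 in other cells. Its log2 ratios were 1.33 [1.05, 1.59], 1.09 [0.80, 1.38] and 1.36 [0.97, 1.73], and 1.24 [1.07, 1.42] combined, from 417 UMIs in gate cells. Gate cells were above other cells in every bin, with no interval reaching 0. Tgtp2 (chromosome 11, 49057194 to 49064206, minus strand), a T cell GTPase of the IRG family, was at 479.5, 369 and 275.9 UPM in gate cells and at 236.6, 165.3 and 128.8 in other cells, with 1.09 [0.93, 1.25] combined. Its near-copy Tgtp1 had 1.06 [0.90, 1.21], and reads of the pair, like those of Gbp6 and Gbp10, may be split between them. Gbp10 had 1.15 [0.88, 1.42] and Gbp4 1.03 [0.81, 1.24], the latter 0.88 without GFPlow. Gm4951, an IRG-like gene that lies near Iigp1 on chromosome 18, had 1.66 [1.14, 2.19], which was 0.43 in the gate without Iigp1. Of the 11 members with a RefSeq promoter, 10 held the response element core shown above, against 2.83% of promoters of genes with at least 50 UMIs, and of the 23 antiviral effectors with one, 9 did.

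**Figure D3:**
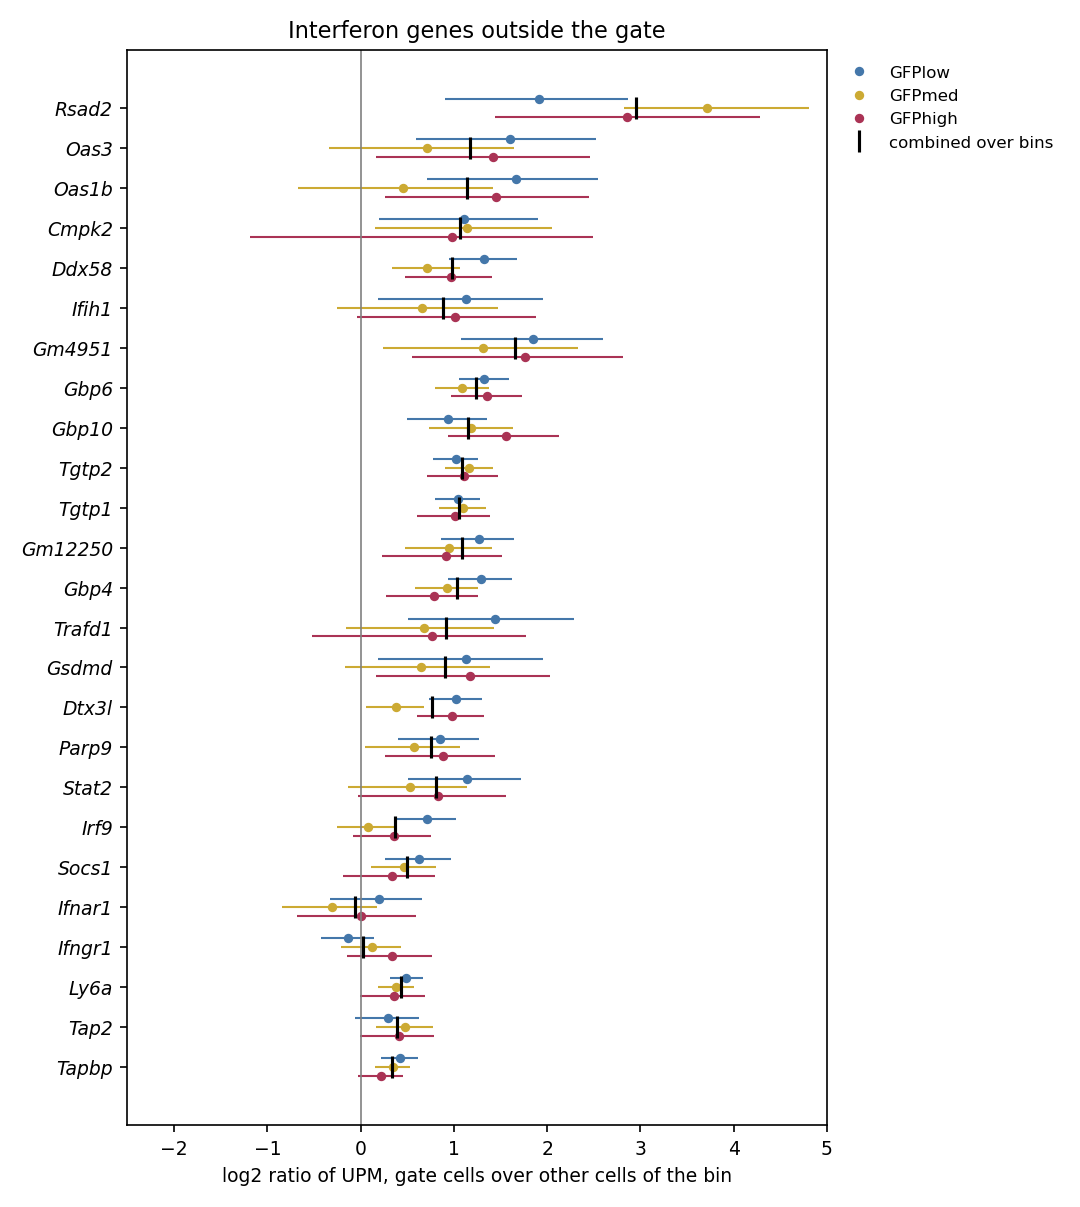
Log2 ratio of UPM, gate cells over other cells of the same bin, for 25 genes that were not used by the gate. All belong to the interferon lists except Trafd1 and Gsdmd, which are outside the lists and were drawn as members of the 20 highest genes. Points are the 3 bins with exact 95% intervals for counting error, black bars the combined ratio; Rsad2 is at 2.95, the GTPase genes Gbp6 to Gbp4 between 1.03 and 1.24, and the receptor genes Ifnar1 and Ifngr1 at -0.06 and 0.03.

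Sensors of viral nucleic acid were uneven. Of 16 measured members, 6 were higher in each bin, 0 lower in each bin and 0 called, with a median of 0.39. Of all genes with at least 50 UMIs, 14% were higher and 12.4% lower in each bin, 0.417% called higher and 1.36% lower. Ddx58, which encodes RIG-I, was at 241, 168.5 and 181.5 UPM in gate cells and at 96.9, 103.2 and 93.7 in other cells, a combined log2 ratio of 0.98 [0.77, 1.21], with gate cells higher in all 3 bins. Ifih1, which encodes MDA5, had 0.89 [0.38, 1.39], and Znfx1 0.58 [0.18, 0.96]. Ddx60 (0.67 [0.10, 1.20]) was not higher in GFPhigh, and the RNA sensor gene Tlr7 (0.80 [-0.02, 1.61]) not in GFPmed.

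Ubiquitin ligases, PARP enzymes and Schlafen proteins of the response were higher by small amounts in most members. Of 31 measured, 23 were higher in each bin, 0 lower in each bin and 0 called, with a median of 0.48. Among all genes with at least 50 UMIs, 14% were higher and 12.4% lower in each bin. By the gate of 3 UMIs the list median was 0.78 and 6 were called. In that gate 0.752% of genes with at least 100 UMIs were called higher and 2.20% lower. The 5 members furthest from 0 were Uba7, the activating enzyme for ISG15 (0.87 [0.37, 1.37]), Trim12a (0.84 [0.46, 1.25]), Phf11d (0.83 [0.48, 1.17]), Dtx3l (0.77 [0.60, 0.96]) and Parp9 (0.75 [0.47, 1.04]). Dtx3l and Parp9 form a complex and are transcribed from adjoining ends of their genes. Dtx3l was at 360.2, 209.3 and 312 UPM in gate cells and at 177.5, 161.7 and 159.4 in other cells, closest in GFPmed. Trim12a and Phf11d belong to families of close copies.

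Genes of receptors and signalling were mixed in direction. Of 21 measured genes of receptors and signalling, 7 were higher in each bin, 0 lower in each bin, 14 mixed and 0 called. Their median was 0.03. The shares of all genes with at least 50 UMIs were 14% higher and 12.4% lower in each bin, 0.417% called higher and 1.36% lower. Ifnar1 was at 109, 72.7 and 90.8 UPM in gate cells and at 96.4, 90.8 and 91.7 in other cells, a combined log2 ratio of -0.06 [-0.37, 0.24]. Ifngr1 had 0.03 [-0.16, 0.22]. Differences of the size of their interval bounds were not detectable at this depth.

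Stat2 had a combined log2 ratio of 0.81 [0.44, 1.19] and Irf9, which binds the response element, 0.37 [0.17, 0.56], with 0.71 in GFPlow and 0.08 in GFPmed. Irf8, also a marker of plasmacytoid dendritic cells, had 0.67 [0.19, 1.14], with 0.13 in GFPmed. Socs1, the feedback inhibitor of Jak kinases, had 0.50 [0.27, 0.71], and it was at 221.1, 172.1 and 152.5 UPM in gate cells and at 143.6, 124.7 and 121.8 in other cells. Transcripts of the interferons themselves were almost absent. Of 9 interferon genes, 8 had 0 UMIs in gate cells, which allows up to 2.42 UPM (3 counts over the group), and Ifng had 1 there of 9 in all.

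MHC class I and its loading machinery differed little. Of 20 measured members 11 were higher in each bin, 0 lower in each bin and 0 called, with a median of 0.18. For all genes with at least 50 UMIs, 14% were higher and 12.4% lower in each bin, 0.417% called higher and 1.36% lower. The peptide transporter gene Tap2 had a combined log2 ratio of 0.39 [0.20, 0.59] and Tapbp, which encodes tapasin, 0.34 [0.22, 0.46], at 688, 575 and 599 UPM in gate cells against 515, 453 and 515 in other cells. The immunoproteasome subunit genes Psmb9 and Psmb10 were both at 0.30. In the Ly6 family, 3 of 5 measured members were higher in each bin, and Ly6a, the surface marker Sca-1, was at 840, 530 and 297.7 UPM in gate cells and at 598.5, 407 and 234.1 in other cells, a combined log2 ratio of 0.43 [0.31, 0.55]. In both kinds of cell Ly6a was highest in GFPlow and lowest in GFPhigh. MHC and Ly6 genes have close copies, so their split is uncertain.

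The gate count, which chose the members, was also set against the summed level of 2 interferon lists, as a description. The summed level of the GBP and IRG list was 3430, 2422 and 2165 UPM in cells with 0 gate UMIs of GFPlow, GFPmed and GFPhigh, and 4770, 3440 and 2672 with 1. It was 6207, 4054 and 2958 with 2, 6174, 4830 and 4175 with 3, and 7527, 5450 and 5578 with 4 or more. Cells with 1 gate UMI, which are outside, were thus above cells with 0 in each bin. The antiviral list went from 5203, 4898 and 4583 to 7761, 7086 and 6209, with most of the step at 4 or more. Depth was higher along the same classes, from a median of 1095 UMIs at 0 to 1620.5 at 4 or more, and its part in these values was not tested.

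**Figure D4:**
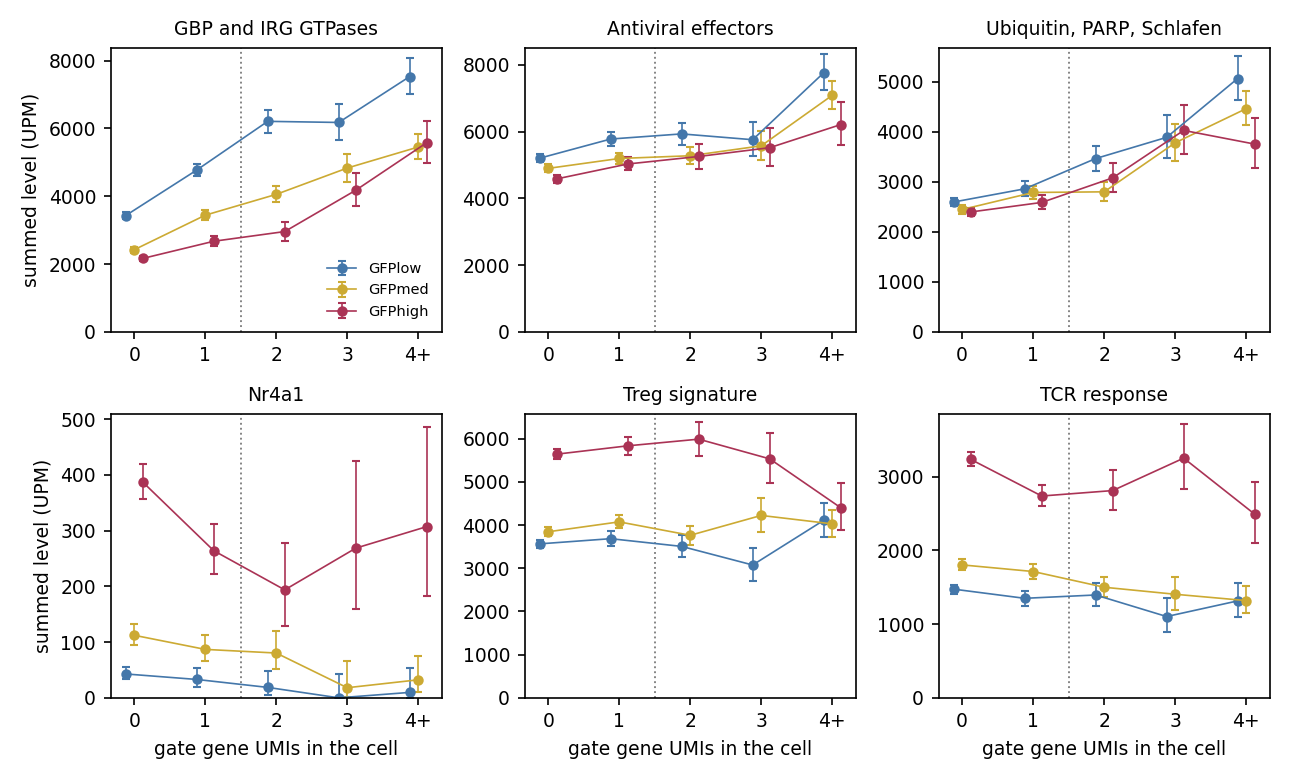
Summed level in UPM of 5 gene lists and of Nr4a1 by the number of gate gene UMIs in the cell, for the 3 bins with exact 95% Poisson intervals; the dotted line is the gate. The GTPase level in GFPlow is 3430 at 0 gate UMIs and 7527 at 4 or more, and Nr4a1 is at 42.8 and 9.74 there.

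Members were also split by Iigp1, one of the genes that chose them, and these subsets were chosen after their values were seen, so their values are a description. The summed GBP and IRG level was 6306, 5700 and 5461 UPM in members with Iigp1 alone, 4722, 3662 and 2897 in members without Iigp1, and 3770, 2765 and 2296.8 in the other cells. The antiviral list was at 6219, 5345 and 4959 UPM with Iigp1 alone and at 6193, 6017 and 5673 without, against 5349, 4998 and 4699 in the other cells. The members without Iigp1 thus lay nearer to the other cells in GTPases. The subsets differed in other genes too, such as the proliferation gene Stmn1, with 66 UMIs in members without Iigp1 and 0 in those with Iigp1 alone.

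Genes of the T cell receptor response were mixed in direction. Of 22 measured members, 0 were higher in each bin, 7 lower and 15 mixed, against 14% and 12.4% of all genes higher and lower in each bin. Among them 1 was called lower, against 1.36% of all genes with at least 50 UMIs. The median was -0.13, or -0.084 without the 1% of cells with the most UMIs in each bin. Nr4a1 (chromosome 15, 101254269 to 101274795, plus strand), the gene of the reporter by which the bins were sorted, was at 12.4, 54.99 and 235.97 UPM in gate cells of GFPlow, GFPmed and GFPhigh and at 40.3, 103.7 and 355 in other cells. Gate cells were lower within each bin, with log2 ratios of -1.57 [-3.36, -0.42], -0.90 [-1.51, -0.36] and -0.58 [-0.98, -0.22], and -0.76 [-1.08, -0.47] combined. The 101 gate UMIs lay in 41 cells, and 5 of them in GFPlow. Over the alternatives tried the combined log2 ratio lay between -1.39 and -0.69. Whether reporter transcripts add to Nr4a1 was not given in the sources used here.

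The other genes of the response that stood out rested on fewer counts. Pdcd1, which encodes the inhibitory receptor PD-1, was at 4.97, 8.87 and 32.7 UPM in gate cells and at 12.3, 27.2 and 54.1 in other cells. Its combined log2 ratio of -1.11 [-1.97, -0.38] came from 16 gate UMIs in 13 cells and was -0.85 without GFPmed. Penk, the proenkephalin gene, had -0.85 [-1.49, -0.25], with 0 gate UMIs in GFPlow. It had 20 of its 25 gate UMIs in GFPhigh and was not lower in GFPmed. Orai1, the calcium channel gene, had -0.45 [-0.94, 0.01]. Spry1 (0.62 [0.03, 1.16]) lay on the other side, except in GFPhigh.

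Among Treg signature genes the directions split. Of 17 measured, 4 were higher and 5 lower in each bin, against 14% and 12.4% of all genes. Of the list 0 were called, against 0.417% of all genes called higher and 1.36% lower, and the median was -0.07. Socs2, a feedback inhibitor of cytokine signalling, was at 208.7, 159.6 and 163.4 UPM in gate cells and at 124.4, 103.7 and 94.7 in other cells, a combined log2 ratio of 0.71 [0.48, 0.93], higher in all 3 bins. Il2ra, which encodes the interleukin 2 receptor alpha chain CD25, had 0.36 [0.23, 0.49], with 0.56 in GFPlow and 0.10 in GFPhigh, and the beta chain gene Il2rb had 0.21 [0.06, 0.36]. The semaphorin receptor gene Nrp1 was at 260.9, 221.7 and 232.3 UPM in gate cells and at 338.8, 295.1 and 369 in other cells, so that every gate value lay below every other value, with a combined log2 ratio of -0.46 [-0.65, -0.28]. The tetraspanin gene Cd81 had -0.69 [-1.08, -0.31].

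**Figure D5:**
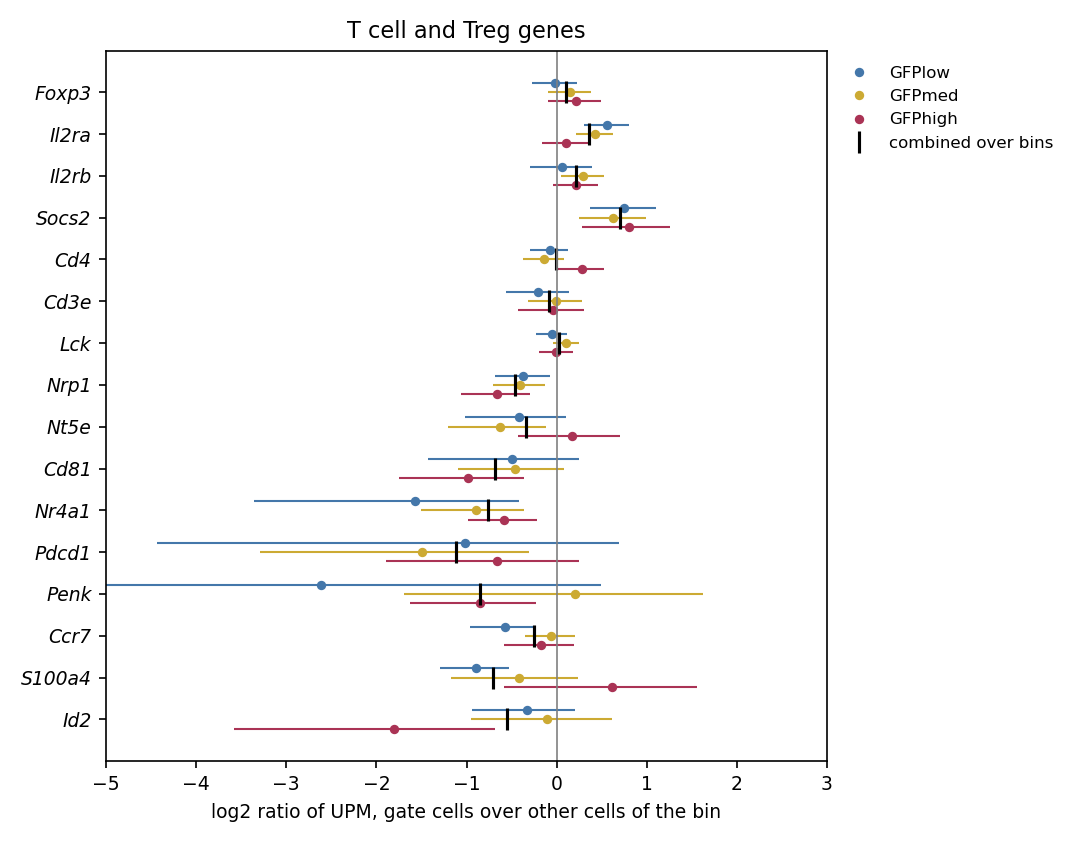
Log2 ratio of UPM, gate cells over other cells of the same bin, for 16 T cell and Treg genes, with exact 95% intervals for counting error per bin and the combined ratio as a black bar. An interval that reaches the left edge has no lower bound in the range drawn; Foxp3, Cd4, Cd3e and Lck lie within 0.10 of 0 combined, Socs2 is at 0.71 and Nr4a1 at -0.76.

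The programs of activated and resting Tregs were not cleanly separated by the gate. Of 27 measured activated Treg genes, 0 were higher in each bin, 7 lower in each bin and 1 called lower. Among all genes with at least 50 UMIs these shares were 14%, 12.4% and 1.36%. The list medians were -0.32, -0.20 and 0.05 in GFPlow, GFPmed and GFPhigh. S100a4, a calcium-binding protein gene of activated T cells, had log2 ratios of -0.89, -0.41 and 0.62 in GFPlow, GFPmed and GFPhigh, so that it was lower in the first 2 bins and higher in the last. Its combined log2 ratio was -0.70 [-1.02, -0.39]. The called gene, Ccr6, had 5 gate UMIs. Id2 had -0.55 [-0.98, -0.13]. Of 22 resting Treg genes, 8 were higher and 5 lower in each bin, against 14% and 12.4% of all genes, with a median of 0.04. The lymph node homing receptor gene Ccr7 was at 178.9, 250.1 and 232.3 UPM in gate cells and at 268.03, 262.8 and 264.2 in other cells.

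Of the remaining lists, genes of cell death had a median above 0. Of 15 measured, 8 were higher in each bin and 0 lower, against 14% and 12.4% of all genes. The median was 0.19, and 0.03 without cells holding at least 2 UMIs of defining genes of other lineages. Casp8, the initiator caspase gene, had a combined log2 ratio of 0.45 [0.24, 0.65], the death receptor gene Fas 0.49 [0.09, 0.89] and Ripk1 0.55 [0.21, 0.89], the last not higher in GFPlow. Of the 15, 4 were below 0 combined, among them Casp1 at -0.51 [-1.53, 0.37] on 12 gate UMIs. Interleukin 2 and STAT5 genes had 6 of 13 higher and 2 lower in each bin, with a median of 0.15, and 0.04 without GFPlow. Stat5a, lower in each bin, had a combined log2 ratio of -0.47 [-0.96, -0.01]. The median was -0.15 for 23 cell cycle genes, with 2 higher and 5 lower in each bin. Without cells holding at least 2 UMIs of defining genes of other lineages it was 0.12, with 3 called higher. In that setting 0.288% of genes with at least 100 UMIs were called higher. With all cells, the median was -0.02 for 24 genes of oxidative phosphorylation and -0.04 for 10 immediate early and heat shock genes. It was -0.00 for 5 genes of Th1-type Tregs and -0.02 for 82 ribosomal protein genes. With all cells, the lists of this paragraph had 0 members called higher and 0 called lower, against 0.417% and 1.36% of all genes.

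Outside the lists, the named genes were thinly counted. Among the 20 highest, 10 belonged to the interferon lists and those outside them began with Lyz1 (2.80), the Mediator subunit gene Med19 (1.09 [0.53, 1.62]), the TFIID subunit gene Taf4b (1.08 [0.52, 1.60]) and the regulator of G-protein signalling gene Rgs16 (1.01 [0.33, 1.66]). All 92 gate UMIs of the lysozyme gene Lyz1 lay in 1 GFPmed cell. Taf4b was 0.75 without GFPmed, and Rgs16 turned to -0.48 when UMIs of 2 different gate genes were asked for. Zfp830 (0.997), Arsb (0.99), Gdpgp1 (0.95), Fbxo21 (0.92), Trafd1 (0.92 [0.40, 1.42]) and the pyroptosis pore gene Gsdmd (0.91 [0.43, 1.39]) followed, none of them called. Med19 was at 39.8, 28.4 and 39.9 UPM in gate cells and at 20.7, 12.8 and 17.04 in other cells. Of the 2882 genes with at least 400 UMIs, 2 were called lower (0.0694%) and 6 higher (0.208%). Among the 10 lowest of these, the genes other than Nr4a1, Cd81 and 2 MHC class II genes were Pip4k2b (-0.81 [-1.26, -0.39]), Dctn1 (-0.67), Zmym2 (-0.60), Aph1a (-0.58), Ccl5 (-0.58) and Ap3b1 (-0.57).

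Markers of other cell types differed with the gate in places, and their part in the results was not tested. The summed B cell markers, 14 genes of which Ebf1 and Pax5 were at 0 in gate cells, were at 86.96, 344 and 352 UPM in gate cells and at 321, 407 and 385 in other cells. Among them the MHC class II genes were lower, H2-Ab1 (-2.93, 5 gate UMIs), H2-Aa (-1.19 [-1.65, -0.76], 48 gate UMIs in 7 cells) and H2-Eb1 (-1.30 [-1.84, -0.79], 0 gate UMIs in GFPlow), the last 2 being -0.86 and -0.81 without GFPlow. Ms4a1 (0.52 [-0.38, 1.32]) and Cd79b (0.51 [-0.20, 1.15]) of the same list were higher in GFPmed alone. Erythroid markers (10 genes, Car1 at 0) were at 14.9, 4488 and 123.4 UPM in gate cells and at 1679, 2589 and 1185 in other cells, and 94.1% of the gate UMIs of the globin gene Hba-a2 came from 1 cell. Plasma cell markers were at 146.6, 102.9 and 1974.9 UPM in gate cells and at 142.1, 78.5 and 128.3 in other cells, and 98.7% of the gate UMIs of Jchain came from 1 cell. Myeloid markers (17 genes, 5 at 0) ranged from 422 to 781 UPM in gate cells and from 395 to 504 in other cells. CD8 T and NK cell markers (12 genes, 2 at 0) ranged from 98.02 to 172.1 UPM in gate cells and from 136.2 to 246.9 in other cells. Plasmacytoid dendritic cells are known for interferon production. Their summed markers (12 genes, 3 at 0) were at 116.8, 152.6 and 210.6 UPM in gate cells against 86.6, 103.2 and 168.9 in other cells. The members were uneven. Irf8, also counted in the signalling list, was at 42.2 UPM in gate cells against 12.8 in other cells of GFPlow. Cybb was at 72.7 against 29.8 in GFPmed but at 10.9 against 48.1 in GFPhigh. Tcf4 was called higher (1.08 [0.13, 2.02], 15 gate UMIs). Jchain, at 5.97, had the highest ratio of all named genes, and all 6 platelet markers were at 0 in gate cells.

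Cells that held at least 2 UMIs of 28 defining genes of other lineages made up 0.329%, 3.86% and 1.72% of gate cells in GFPlow, GFPmed and GFPhigh and 1.76%, 2.88% and 1.81% of other cells. Without them the list median was 0.87 for the GTPases, 0.56 for the antiviral effectors and 0.54 for the ubiquitin, PARP and Schlafen list. Cells with at least 2 UMIs of any marker of other lineages were 25.66%, 38.25% and 36.21% of gate cells in GFPlow, GFPmed and GFPhigh. They made up a lower share of other cells in each bin, at 18.58%, 28.04% and 28.29%. Leaving them out gave list medians of 0.79 for the GTPases, 0.48 for the antiviral effectors and 0.25 for the sensors. Gate cells were also deeper, and the part of depth in these shares was not tested.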

How the data were processed

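Splenic Tregs of 3 GFP bins were measured by inDrops on a NextSeq500, per the labels' protocols. The authors deposited raw UMI counts of 23725 genes in 6106 cells. TopHat2, SAMtools and mm10 are named in the submitters' processing notes; versions, annotation, counting program, strand and UMI rule were not given in the sources used here.

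Members, lists and the rule for named genes were chosen with earlier results of these data known. Cells with at least 500 UMIs were used and no doublet caller was run. UMIs were summed per bin and class and scaled to 1000000. Per-bin log2 ratios added 0.5 UMI, with exact conditional binomial intervals, and bins were combined as Mantel-Haenszel ratios with an exact interval under a common ratio. An interval or limit covers counting error only. A call needed 2-fold and the same direction in 3 bins. Calls used genes with at least 100 UMIs, lists members with at least 50, and the 10 lowest named genes at least 400. A count of 0 was given an upper limit of 3 counts. Named genes were the 20 highest and 10 lowest (ribosomal, receptor segment, mitochondrial and model genes left out), up to 5 members per list with the largest absolute ratio, and genes always named. UMIs lying in few cells are not independent, which the intervals leave out.

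Positions are from GENCODE M21, which held 96.2% of the symbols. Alternatives changed the gate, the cells, the scaling (TMM of edgeR 4.0.16 in R 4.3.3) and the minimum counts; leaving out cells with lineage-defining markers, and giving calls under alternatives as a percent of genes tested, were chosen after seeing the data. Python 3.11.15, numpy 2.4.6, scipy 1.17.1 and pandas 2.3.3 were used. Tested on simulated counts of the gate comparison, 53.8% of 80 genes with a true log2 ratio of 1, and 100% of 40 with 2, were called higher, and 43.8% of 80 with -1 were called lower. Of 6846 genes without a difference, 0% were called higher and 0.161% lower. The simulated counts were independent Poisson draws of summed counts, without cells or a gate. Calls that come from UMIs lying in few cells, such as that of Lyz1, are thus not covered by these rates. Some results are not reported here.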

Additional observations from a re-analysis of the deposited data

How the results depend on the processing

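No paired analysis was possible because each bin has 1 library and the bins are not replicates of a condition; gate and other cells were compared within each library throughout. The shares of GFPlow, GFPmed and GFPhigh were 6.50%, 8.33% and 4.56% with a gate of 3 UMIs, 8.90%, 12.4% and 6.59% with UMIs of 2 different gate genes, and 7.58%, 11.6% and 6.76% without Iigp1 in the gate. They were 17.7%, 21.8% and 12.8% among cells with at least 1000 UMIs and 5.09%, 3.97% and 3.10% thinned. GFPmed was at 16.3% without cells holding at least 2 UMIs of other lineages. Against 16 genes called higher (0.227%) and 45 lower (0.639%), the calls were 29 (0.412%) and 102 (1.45%) with 2 different gate genes, 26 (0.369%) and 98 (1.39%) without Iigp1, and 53 (0.752%) and 2.20% with a gate of 3 UMIs. They were 6 (0.163%) and 2 (0.0543%) with at least 300 UMIs per gene, 1559 (10.7%) and 1.97% with no minimum, and 27 lower (0.421%) among cells with at least 1000 UMIs. Leaving out 1 bin gave 0.238% to 0.394% higher and 0.574% to 1.01% lower, both most without GFPmed.

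With a gate of 3 UMIs the list medians were 0.81 for antiviral effectors, 1.01 for GTPases, 0.61 for sensors, 0.78 for the ubiquitin, PARP and Schlafen list, -0.53 for cell cycle, -0.26 for TCR response and -0.27 for Th1-type Tregs. With 2 different gate genes they were 0.60 for the ubiquitin list, 0.083 for cell death and -0.25 for TCR response. Without Iigp1 in the gate they were 0.58 for GTPases and -0.28 for TCR response. Without cells of other lineages they were 0.48 for antiviral effectors, 0.25 for sensors and 0.070 for cell death, the last 0.029 without cells with defining markers. The antiviral median was 0.34 with at least 300 UMIs per gene, and the cell cycle median was -0.74 with other cells weighted to the depth of gate cells and 0.12 without cells with defining markers. Leaving out 1 bin gave 0.48 to 0.56 for antiviral effectors, 0.039 to 0.12 for interleukin 2 and STAT5, and -0.26 to -0.10 for TCR response. The cause was not tested.

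Of the named genes that met the 2-fold call rule, 7 turned direction in some alternative. Turns of the other named genes were not counted. With a gate of 3 UMIs Ifitm3 was at -0.11, Lyz1 at -4.98, Lyz2 at -4.21, Rgs16 at -0.61 and Slc4a1 at 0.053, and Rgs16 was at -0.48 with 2 different gate genes. Without cells with defining markers Lyz1 was at -0.70 and Slc4a1 at 1.78. Without cells of other lineages Lyz1 was at -0.50, Tcf4 at -0.94 and Nkg7 at 0.0020. Leaving out 1 bin put Lyz1 between -0.42 and 2.85.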
